A study of Mus musculus with 8 samples.

Results

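The genes described here are 10 genes of the MHC class I antigen presentation pathway, out of 55536 genes counted in mouse frontal cortex. They were chosen by symbol: the heavy chain genes H2-D1, H2-K1, H2-T23 and H2-T22, the light chain gene B2m, the peptide transporter and loading genes Tap1, Tap2 and Tapbp, and the immunoproteasome genes Psmb8 and Psmb9. The list was drawn up around H2-D1, which was already known to be lower in HAR123-KO libraries of this table, so the genotype differences of the 10 genes are given as a description and carry no test. RNA-seq had been used to look for genes that depend on HAR123 in the frontal cortex, a region tied to cognitive flexibility. HAR123 is an enhancer in an intron of Smg6 that changed rapidly in the human lineage, and its mouse counterpart was removed with CRISPR-Cas9 in C57BL/6J embryos. The table held 4 WT and 4 HAR123-KO libraries, all from frontal cortex of mice aged 8 weeks on a C57BL/6J background, with WT littermates as controls per the study. The deletion is in the germline and is not limited to a cell type, and no further allele or agent is named for either group.

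MHC class I molecules carry short peptides from inside a cell to its surface, where T cells and natural killer cells inspect them. Each molecule is a heavy chain bound to β2-microglobulin. Peptides are cut by the proteasome, pumped into the endoplasmic reticulum by the TAP transporter, and fitted into the heavy chain with the help of tapasin, calreticulin and the disulfide isomerase ERp57. Interferons raise the expression of most of these genes. In the healthy brain, class I transcripts are low compared with lymphoid organs, are well expressed by vascular endothelial cells and microglia, and are also found in neurons, where classical class I molecules have been linked to synapse remodelling.

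The heavy chain genes are close copies, and this bears on how far a read can be assigned to one of them. In the GENCODE M21 annotation, the coding sequences of H2-D1 (1086 bases) and H2-K1 (1107 bases) were identical at 92.0% of 1074 aligned bases. H2-D1 shared 89.6% with H2-Q6, 89.8% with H2-Q7, 81.8% with H2-T23 and 75.5% with H2-T22. The stretches below are the 100-base windows, each inside a single exon of both genes, in which H2-D1 and H2-K1 differ least and most, with differing bases in capitals. The most alike pair has 1 differing base and lies in exon 4, at chr17:35265829-35265928 on the plus strand for H2-D1 and chr17:33997416-33997515 on the minus strand for H2-K1 (GRCm38).
H2-D1, most alike: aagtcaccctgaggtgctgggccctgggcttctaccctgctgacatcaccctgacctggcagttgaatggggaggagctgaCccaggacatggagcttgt
H2-K1, most alike: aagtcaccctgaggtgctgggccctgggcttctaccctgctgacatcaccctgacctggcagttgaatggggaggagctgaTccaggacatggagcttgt
The least alike pair has 17 differing bases and lies in exon 3, at chr17:35263974-35264073 on the plus strand for H2-D1 and chr17:33999312-33999411 on the minus strand for H2-K1.
H2-D1, least alike: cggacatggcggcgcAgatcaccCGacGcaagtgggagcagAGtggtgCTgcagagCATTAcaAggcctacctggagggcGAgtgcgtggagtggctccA
H2-K1, least alike: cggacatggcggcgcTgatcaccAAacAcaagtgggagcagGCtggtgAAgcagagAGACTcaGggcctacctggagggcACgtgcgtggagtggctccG

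Over whole transcripts, exact sharing was limited for most of the 10 genes. Of all 50-base windows of the H2-D1 transcripts, 12.8% also occurred in a transcript of another gene, and of all 100-base windows 3.59% did. The partners that shared most 50-base windows with H2-D1 were H2-Q1 (5.87%), H2-K1 (5.44%) and H2-Q7 (4.75%). For H2-K1 the shares were 9.63% and 0.957%, and for H2-T23 14.5% and 3.15%. H2-T22 stood out, with 53.5% and 31.5%, since it shares windows with H2-T10 and with A930015D03Rik, an antisense gene annotated over it. B2m shared no window with any other gene, and lies within the annotated span of Patl2 on the opposite strand. Tap1 and Psmb9 overlap head to head by 212 bases on opposite strands. Antisense genes also overlap H2-T23, Psmb8 and Tapbp, and noncoding genes on the opposite strand overlap Tap2. Tapbp, with 23.2% of its 50-base windows shared, is also overlapped by Zbtb22, a protein-coding gene on the same strand, over 3422 bases, which a strand setting would not resolve. The strand setting and the treatment of reads with several matches are not given in the sources used here, so counts of H2-T22 and of the other overlapping genes are uncertain to that degree.

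The promoters of several heavy chain genes are also alike. RefSeq windows of the 250 bases before the start (GRCm38.p6) were available for 9 of the 10 genes. They were searched on both strands for GGGATTCCC, a κB element known from class I enhancer A, for TTTCNCTTC, the core of the class I interferon consensus, and for GAAANNGAA, a more general interferon response core. GGGATTCCC occurred in 0.301% of 32851 promoters, TTTCNCTTC in 2.0% and GAAANNGAA in 7.13%. Only 7 promoter windows held both of the first motifs, and H2-D1, H2-K1 (with 2 start sites), H2-Q6 and H2-Q7 accounted for 5 of them. The 30-base stretches that carry GGGATTCCC or TTTCNCTTC are shown for the heavy chain genes with counts, with matched bases in capitals. H2-Q10, which also held TTTCNCTTC, had no count in any library and is not shown. H2-Q2 held none of the 3 motifs that were searched, and H2-Q1 had no RefSeq window and was not searched. The stretches lie at chr17:35262923-35262952 (plus strand, H2-D1), chr17:34000429-34000458 (minus strand, H2-K1), chr17:35424677-35424706 (plus strand, H2-Q6), chr17:35439021-35439050 (plus strand, H2-Q7) and chr17:35379443-35379472 (plus strand, H2-Q4). In H2-D1 the stretch ends 142 bases before the RefSeq start, and it lies inside the H2-D1 gene of GENCODE M21, which starts at base 35262730.
H2-D1: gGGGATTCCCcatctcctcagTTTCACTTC
H2-K1: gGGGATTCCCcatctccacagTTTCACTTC
H2-Q6: gGGGATTCCCcatctccccagTTTCACTTC
H2-Q7: tgGGGATTCCCatctccccagTTTCACTTC
H2-Q4: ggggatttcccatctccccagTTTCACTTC
H2-T23, H2-T22 and B2m held neither of the first motifs, and each held GAAANNGAA on one strand. In B2m that match lies in the stretch at chr2:122147537-122147566 on the plus strand.
B2m: tataagaacatGAAACTGAAaatgggaaag
Tap1, Tapbp, Psmb8 and Psmb9 held none of the 3 motifs in this window. A match is a description of the letters, and binding was not measured.

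Counting depth set the precision of all values. Total counts ran from 13528251 to 17051001 per library, but 55.1% to 58.1% of them fell on Gm42418, a gene over ribosomal RNA sequence. Nuclear protein-coding genes, with Lars2 left out, received 2786320 to 3732172 counts. Values below are counts divided by DESeq2 size factors (normalized counts), and fold changes are DESeq2 log2 estimates of HAR123-KO over WT with their standard error (SE). Libraries of the same genotype differed from each other more than sampling noise (chi-square per degree of freedom 1.21 to 1.31 over 12 pairs), and libraries of different genotypes differed more (1.58 to 1.72 over 16 pairs). Smg6, the host gene, ran from 199 to 217.2 normalized counts in WT and from 205.4 to 239.6 in HAR123-KO, which does not test an intronic deletion.

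Of the 10 genes, 6 had a mean above the DESeq2 filter on low counts and received an adjusted p: the 4 heavy chain genes, B2m and Tapbp. Tap1, Tap2, Psmb8 and Psmb9 fell below the filter. By the study's limits for this tissue (adjusted p below 0.05 and a log2 fold change beyond 0.5 in either direction), 1 of the 6, H2-D1, was called lower in HAR123-KO, and 0.0705% of the 12758 genes tested were. In 2 of the 6, H2-D1 and B2m, all 4 HAR123-KO libraries were below all 4 WT libraries, and 3.65% of all genes tested were. Since this contrast was used to choose the list, nothing is read from these counts. The median log2 fold change over the 6 genes was -0.22, against -0.0017 over all genes tested. Of the 6, 5 were below 0, as were 6461 of the 12758 genes tested.

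**Figure D1:**
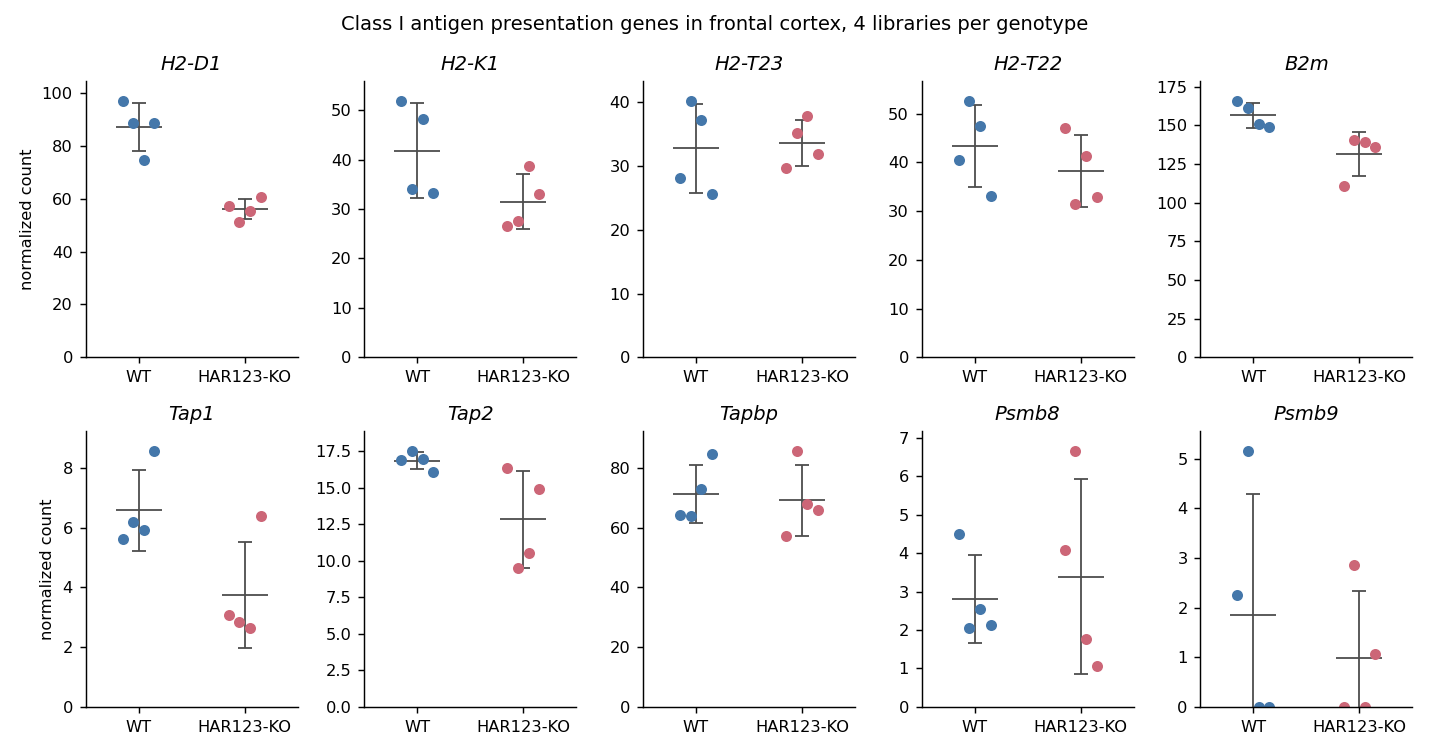
Normalized counts of the 10 genes in each library (points), with the mean and SD (bars) of 4 WT and 4 HAR123-KO libraries; each vertical axis starts at 0. The 2 groups are apart for H2-D1 (lowest WT library 74.6, highest HAR123-KO library 60.6) and for B2m (148.7 and 140.7), and overlap for the other 8 genes.

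H2-D1 (ENSMUSG00000073411, chr17:35262730-35267499, plus strand) encodes a classical heavy chain that presents peptides to CD8 T cells. Its normalized count was 96.8, 88.5, 74.6 and 88.8 in WT replicates 1 to 4, and 57.3, 51.3, 55.5 and 60.6 in HAR123-KO replicates 1 to 4. Every HAR123-KO library lay below every WT library. The mean was 87.2 ± 9.25 for WT and 56.2 ± 3.87 for HAR123-KO (SD, n = 4), so that the HAR123-KO mean was 64.5% of the WT mean. The log2 fold change was -0.63 ± 0.16 (SE), with a 95% interval from -0.94 to -0.32. These values rest on 343 raw counts in WT and 230 in HAR123-KO. The libraries of a genotype varied no more than counting error would give (chi-square per degree of freedom 0.658). The call was lost without WT replicate 1, HAR123-KO replicate 2 or HAR123-KO replicate 4, while the fold change without any 1 library ran from -0.70 to -0.58. With the replicate number as a block in the fit, the call was also lost, at a log2 fold change of -0.63.

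H2-K1 (ENSMUSG00000061232, chr17:33996017-34000347, minus strand) encodes the other classical heavy chain of these mice, and its start lies 1267 kb from that of H2-D1. Its normalized count was 51.8, 34.0, 48.3 and 33.2 in WT, and 26.6, 27.6, 38.7 and 33.0 in HAR123-KO. A pair of WT libraries was high, the remaining pair was at the level of the higher HAR123-KO libraries, and the groups overlapped. The mean was 41.8 ± 9.62 for WT and 31.5 ± 5.59 for HAR123-KO (SD, n = 4). The log2 fold change was -0.41 ± 0.22 (SE), with a 95% interval from -0.85 to 0.03 that includes 0 and also the estimate for H2-D1.

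The share of H2-D1 in the counts of both classical genes needs no scaling between libraries. It was 65.2%, 72.3%, 60.7% and 72.8% in WT, and 68.3%, 65.1%, 58.9% and 64.8% in HAR123-KO. The shares overlapped, and the mean share differed by -3.48 percentage points between HAR123-KO (64.3% ± 3.92) and WT (67.7% ± 5.85, SD, n = 4), less than either SD. Leaving out single libraries moved this difference between -5.83 (without WT replicate 3) and -1.69 points (without HAR123-KO replicate 3). In the counts of all 4 heavy chain genes, the share of H2-D1 was 42.7% ± 5.57 in WT and 35.3% ± 2.57 in HAR123-KO, a difference of -7.39 points that exceeds either SD, with overlapping libraries. Relative to B2m, H2-D1 counts were 55.6% ± 4.62 in WT and 43.2% ± 6.65 in HAR123-KO, with overlapping libraries.

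H2-T23 (ENSMUSG00000067212, chr17:36029773-36032855, minus strand) encodes Qa-1, a non-classical heavy chain that presents leader peptides of other class I molecules to the CD94/NKG2A receptor of natural killer cells. Its normalized count was 28.1, 40.2, 37.3 and 25.7 in WT, and 29.7, 35.2, 37.9 and 31.9 in HAR123-KO. All 4 HAR123-KO libraries lay within the WT range. The log2 fold change was 0.03 ± 0.23 (SE), with a 95% interval from -0.42 to 0.48.

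H2-T22 (ENSMUSG00000056116, chr17:36037128-36042747, minus strand) encodes a non-classical heavy chain recognised by some γδ T cells. Its normalized count was 40.5, 52.5, 47.4 and 33.2 in WT, and 47.1, 31.4, 41.4 and 33.0 in HAR123-KO. The libraries of both genotypes were intermingled, and the log2 fold change was -0.19 ± 0.21 (SE), with a 95% interval from -0.60 to 0.22. Its counts are the least certain of the heavy chain genes, since 53.5% of its 50-base windows are shared with other genes.

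Because reads can be divided between copies, the 4 heavy chain genes were also summed. The sum was 217.3, 215.2, 207.6 and 180.8 normalized counts in WT, and 160.7, 145.5, 173.4 and 158.5 in HAR123-KO. All HAR123-KO sums lay below all WT sums, with means of 205.2 ± 16.8 and 159.5 ± 11.4 (SD, n = 4) and a ratio of HAR123-KO to WT of 0.777. H2-D1 is the main contributor to this sum in WT (42.7% ± 5.57), so the sum is not separate from the H2-D1 values. H2-T23 and H2-T22 together gave a ratio of raw counts, corrected for the size factors, of 0.937, with a 95% interval for counting error alone from 0.796 to 1.10.

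B2m (ENSMUSG00000060802, chr2:122147686-122153083, plus strand) encodes β2-microglobulin, the light chain that class I heavy chains need for stable expression at the cell surface. It is the only one of the 10 genes outside chromosome 17. Its normalized count was 165.5, 161.6, 150.8 and 148.7 in WT, and 110.6, 140.7, 139.1 and 136.1 in HAR123-KO. The groups did not overlap, with HAR123-KO replicate 1 well below the other 3 libraries of its genotype. The mean was 156.7 ± 8.17 for WT and 131.6 ± 14.2 for HAR123-KO (SD, n = 4), 84.0% of the WT mean. The log2 fold change was -0.25 ± 0.11 (SE), with a 95% interval from -0.46 to -0.03. B2m was not called, and its estimate is below the fold limit of 0.5.

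The TAP transporter is a dimer of the products of Tap1 and Tap2, which moves peptides into the endoplasmic reticulum. Tap1 (chr17:34187553-34197225, plus strand) had normalized counts of 5.63, 6.18, 5.93 and 8.56 in WT, and 3.07, 2.85, 2.64 and 6.38 in HAR123-KO. HAR123-KO replicate 4 lay inside the WT range and the other 3 below it, and the log2 fold change was -0.83 ± 0.61 (SE). Tap2 (chr17:34203527-34216321, plus strand) had 16.9, 17.5, 16.9 and 16.05 in WT, and 16.4, 9.51, 10.6 and 14.9 in HAR123-KO, with a log2 fold change of -0.40 ± 0.34 (SE). For both genes the groups overlapped and the mean was below the filter. Taken as a sum, the transporter genes had 93 raw counts in WT and 67 in HAR123-KO, a corrected ratio of 0.698 with a 95% counting interval from 0.502 to 0.965.

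Tapbp (chr17:33915899-33929292, plus strand) encodes tapasin, which holds an empty heavy chain next to TAP. Its normalized count was 64.2, 63.8, 72.9 and 84.5 in WT, and 57.3, 85.6, 67.8 and 65.9 in HAR123-KO. The highest and the lowest library were both HAR123-KO, and the log2 fold change was -0.04 ± 0.16 (SE), with a 95% interval from -0.36 to 0.27. Psmb8 and Psmb9 encode the interferon-inducible catalytic subunits that replace constitutive ones in the immunoproteasome. Psmb8 (chr17:34197721-34201454, plus strand) ran from 2.06 to 4.50 normalized counts in WT and from 1.06 to 6.66 in HAR123-KO. Psmb9 (chr17:34181987-34187764, minus strand) was at 0 in 2 WT and 2 HAR123-KO libraries and reached 5.15 in WT and 2.85 in HAR123-KO. Together they had 18 raw counts in each genotype, too few to show a difference at this depth.

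**Figure D2:**
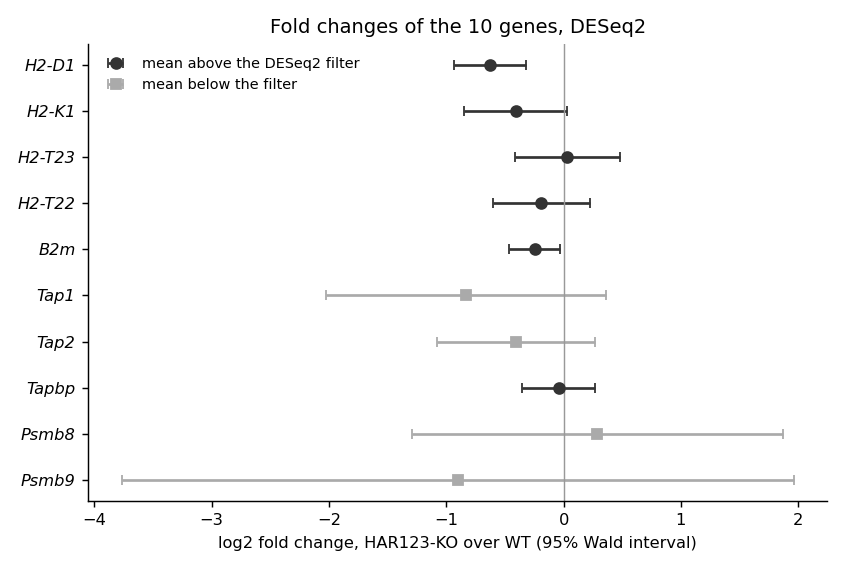
DESeq2 log2 fold changes of HAR123-KO over WT for the 10 genes (points) with 95% Wald intervals (bars), dark for the 6 genes above the filter on low counts and grey for the other 4. The intervals of H2-D1 (-0.94 to -0.32) and B2m (-0.46 to -0.03) lie below 0, and the other 8 include 0.

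Ordered by level per kb of exon, B2m was the most abundant of the 10 genes in WT, with 182 ± 9.50 normalized counts per kb (SD, n = 4), followed by H2-D1 with 33.8 ± 3.59. Tapbp (19.7 ± 2.68), H2-K1 (14.2 ± 3.27), H2-T22 (12.7 ± 2.46) and H2-T23 (11.4 ± 2.42) followed, and the libraries of neighbours among these 4 overlapped. Tap2 (4.46 ± 0.159) lay below all of these in every WT library. Tap1, Psmb8 and Psmb9 averaged 1.20 or less per kb, with overlapping neighbours. In HAR123-KO the level of H2-D1 per kb was 21.8 ± 1.5 and overlapped that of Tapbp (19.1 ± 3.27), whereas in WT all H2-D1 libraries were above all Tapbp libraries. Over the 8 libraries, Psmb8 averaged 0.918 and Psmb9 0.386 normalized counts per kb, against 115 for Psmb5, 75.1 for Psmb6 and 55.0 for Psmb7, the constitutive catalytic subunits. Psmb10, the other inducible subunit, averaged 37.3 per kb.

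Variation within genotypes was compared between the genes. Correlations of their deviations from the genotype means over 8 libraries, for the 7 genes with the higher counts, ran from -0.76 (H2-T22 and Tapbp) to 0.54 (H2-T23 and H2-T22). For H2-D1 and B2m the value was 0.07, and for H2-D1 and H2-K1 0.01. With 8 libraries and counts at this level, these values describe the libraries only. Among 9277 genes averaging 50 normalized counts or more, the profiles most like that of H2-D1 over the 8 libraries were those of Uggt1 (Pearson r = 0.981), Nptx1 (0.974), Nr4a2 (0.972), Ptn (0.966) and Lingo1 (0.963), all lower in every HAR123-KO library. By deviations from the genotype means they were Gm10275 (0.966), Rnf103 (0.961), Sdf2 (0.953), Ltbp3 (0.952) and Ndufs7 (0.949). No gene was in both sets of 5.

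The rest of the pathway was read from lists of 97 further genes, of which 40 received an adjusted p. None was called by DESeq2 (0.298% of all genes tested were, in either direction), by edgeR (0.503%) or by limma-voom (0.379%). By an unadjusted DESeq2 p under 0.05, 3 of the 40 were lower (Calr, Pdia3 and Lgals3bp) and 0 higher, against 4.27% lower and 4.51% higher of all genes tested. H2-Q6 and H2-Q7, which received no adjusted p, were also lower by that limit. Of the 40, 31 had a fold change below 0 (6461 of 12758 over all genes tested). The median log2 fold change of the 40 was -0.05.

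The other class I heavy chain genes of the H2 complex were all below the filter, with means under 10 normalized counts. The 17 genes together had 183 raw counts in WT and 112 in HAR123-KO, a corrected ratio of 0.593 with a 95% counting interval from 0.464 to 0.754. Most of this came from the H2-Q genes, which lie 57.7 to 207.4 kb from the H2-D1 start, and this subgroup was chosen after its values were seen. The 6 H2-Q genes summed to 12, 24, 22 and 23 raw counts in WT, and 9, 6, 6 and 4 in HAR123-KO, which gave a ratio of 0.299 with a counting interval from 0.183 to 0.473. Every HAR123-KO sum lay below every WT sum.

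Within that group, H2-Q6 had 2, 2, 7 and 6 raw counts in WT, and 1, 0, 0 and 0 in HAR123-KO. H2-Q7, which encodes the lipid-anchored non-classical molecule Qa-2, had 1, 7, 7 and 6 in WT, and 1, 2, 0 and 0 in HAR123-KO. The corrected ratios were 0.0570 for H2-Q6 (counting interval 0.00136 to 0.364) and 0.138 for H2-Q7 (0.0264 to 0.463), and the unadjusted DESeq2 p was 0.00311 and 0.00841, with no adjusted p for either. H2-Q1 had 17 raw counts in WT and 6 in HAR123-KO, H2-Q4 had 22 and 10, H2-Q2 had 4 and 5, and H2-Q10 had none. H2-Q6 and H2-Q7 are 95.4% identical over their coding sequence and share 13.9% of H2-Q6 windows of 50 bases, so their counts are uncertain as single genes. Farther away, the 3 other H2-T genes had 36 and 27 raw counts (ratio 0.726, counting interval 0.424 to 1.23), and the 4 H2-M genes 51 and 39 (0.741, 0.475 to 1.15). The H2-M sum joins H2-M3, with 36 raw counts in WT and 17 in HAR123-KO, and H2-M5, with 15 and 22, while H2-M2 and H2-M9 had none. The rest of the 17 went mostly the other way, with raw counts in WT and HAR123-KO of 1 and 5 for Gm7030, 0 and 1 for Gm8909, 7 and 11 for Gm11127, and 7 and 4 for H2-Bl. H2-M3, which presents formylated peptides, had the highest level per kb of the 17 genes (4.58 normalized counts) and a log2 fold change of -1.13 ± 0.58 (SE), and its libraries overlapped between genotypes. H2-T24 came next (2.02 per kb), with a log2 fold change of 0.05 ± 0.67 (SE).

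**Figure D3:**
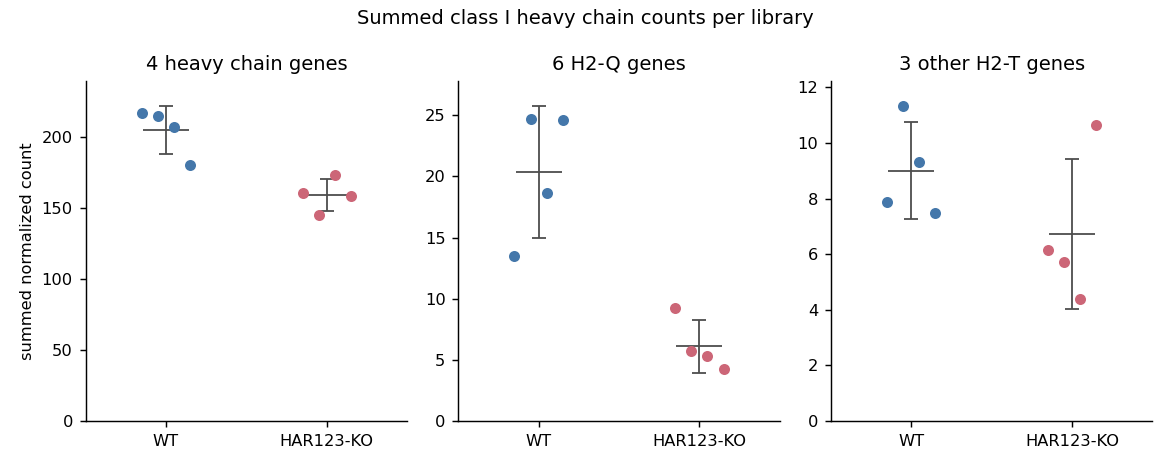
Summed normalized counts per library (points) with mean and SD (bars) for the 4 heavy chain genes described above, the 6 H2-Q genes and 3 other H2-T genes (H2-T3, H2-T10 and H2-T24). The groups are apart in the first 2 panels and overlap in the third.

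Genes next to H2-D1 on the chromosome were read from the same fit. Within 500 kb of its start, 102 genes were annotated and 25 received an adjusted p. The log2 fold changes of these 25 ran from -0.20 to 0.35 with a median of 0.05, and the smallest adjusted p was 0.706. DESeq2 called 0 of the 25, and with 0.298% of all genes tested called, a count of 0 in a set of this size says nothing about the neighbours. By an unadjusted p under 0.05, H2-Q6 and H2-Q7 alone were lower in this window. Around H2-K1, 22 of 80 annotated genes received an adjusted p, 0 were called, and the smallest adjusted p was 0.0528. By an unadjusted p under 0.05, Col11a2 was higher (log2 fold change 0.45 ± 0.14, SE) and Ring1 lower (-0.37 ± 0.17, SE), against 4.51% higher and 4.27% lower of all genes tested.

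**Figure D4:**
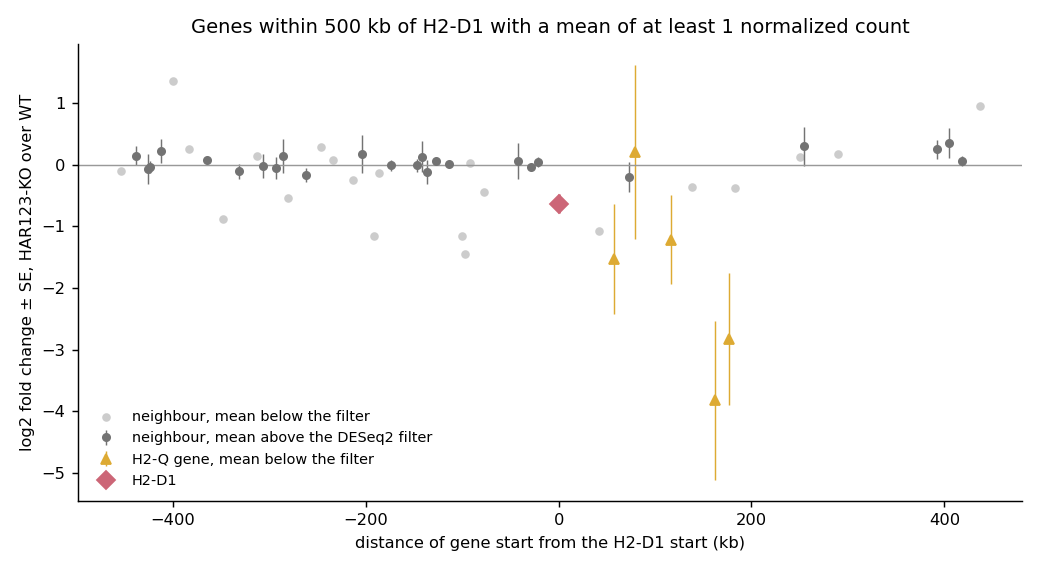
DESeq2 log2 fold change of HAR123-KO over WT (vertical axis, bars show SE) against the distance in kb of each gene's start from that of H2-D1, for genes averaging 1 normalized count or more. The dark points, 25 neighbours above the filter on low counts, lie between -0.20 and 0.35, H2-D1 lies at -0.63, and 4 of the 5 H2-Q genes shown lie below H2-D1 with wide SE.

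Factors that help heavy chains fold and load peptides formed another list. Of 16 further processing and assembly genes, 15 were tested, and their median log2 fold change was -0.04. DESeq2 called 0 of the 15 (0.298% of all genes tested), and in 3 of them, Calr, Pdia3 and Uggt1, all HAR123-KO libraries lay below all WT libraries (3.65% of all genes tested). Calr, which encodes the chaperone calreticulin, had 878, 871, 845 and 845 normalized counts in WT, and 812, 738, 786 and 830 in HAR123-KO (log2 fold change -0.12 ± 0.05, SE, DESeq2 adjusted p = 0.290). Pdia3, which encodes ERp57, ran from 351.6 to 369.6 in WT and from 314.8 to 335.7 in HAR123-KO (log2 fold change -0.14 ± 0.07, SE, DESeq2 adjusted p = 0.514). Uggt1, which re-glucosylates misfolded glycoproteins, had a log2 fold change of -0.13 ± 0.07 (SE, with a DESeq2 adjusted p of 0.669). Canx, the chaperone calnexin, had a log2 fold change of 0.02 ± 0.04 (SE). The 3 constitutive catalytic subunits Psmb5, Psmb6 and Psmb7 had a median log2 fold change of -0.02.

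Interferon genes were read as 2 lists, in which 0 tested genes were called by DESeq2, against 0.298% of all genes tested. Of 15 interferon receptor and signalling genes, 12 were tested (median log2 fold change -0.09), and the kinase genes Jak1 and Jak2 were at -0.01 ± 0.06 and -0.04 ± 0.10 (SE). Of 25 interferon-stimulated genes, 8 were tested, with 7 fold changes below 0 (6461 of 12758 over all genes tested) and a median of -0.13. Lgals3bp, a secreted galectin-binding protein, had 41.7, 38.1, 44.1 and 28.9 normalized counts in WT, and 28.7, 19.02, 25.5 and 24.5 in HAR123-KO, with no overlap (log2 fold change -0.65 ± 0.24, SE, DESeq2 adjusted p = 0.212). Ifi27 was at -0.03 ± 0.22, and Ifitm3, at a mean of 10.5 normalized counts, at 0.23 ± 0.44 (SE). The summed counts of the 25 genes ran from 301.7 to 355.9 in WT and from 280.5 to 324.0 in HAR123-KO and overlapped.

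Other branches of presentation were mostly below the filter. Of 10 class II genes only H2-DMa, which edits class II peptides, was tested (0.26 ± 0.24, SE, DESeq2 adjusted p = 0.883), and Cd74, the class II invariant chain, averaged 5.39 normalized counts. Of the class I-like genes outside the H2 complex, Fcgrt, the neonatal Fc receptor that also pairs with β2-microglobulin, was at -0.13 ± 0.25 (SE, DESeq2 adjusted p = 0.976) and Hfe at 0.07 ± 0.45. Of the 6 class I receptor genes, Cd8a, Cd8b1 and Klrc1 had no count in any library, and Klrd1 and Lilrb4a averaged less than 1.

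Marker lists of other cell types were read beside these genes, because in bulk tissue fewer cells of a type and less RNA per cell cannot be told apart. The 14 endothelial markers summed to 770 to 781 normalized counts in WT and 607 to 680 in HAR123-KO, 83.7% of the WT mean, with 11 of 13 tested genes below 0 (6461 of 12758 over all genes tested). One of them, Vwf, was called lower, as were 0.0705% of all genes tested (log2 fold change -0.90 ± 0.16, SE, DESeq2 adjusted p = 7.34e-06). The 5 blood genes were at 78.8% of the WT mean (1523 to 1681 in WT, 1238 to 1302 in HAR123-KO). The 12 microglial markers overlapped (1261 to 1378 and 1238 to 1268, 0 called), as did the 6 border macrophage markers (14.4 to 34.2 and 20.5 to 32.6). The 6 T cell markers ran from 33.2 to 51.8 in WT and from 53.2 to 69.6 in HAR123-KO, most of it Cd4, while Cd3d and Cd3g were at 0 in every library.

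Lists of brain tissue types also differed in level. Cortical excitatory neuron markers (9424 to 9854 in WT, 8580 to 9161 in HAR123-KO) and astrocyte markers (23276 to 24004 and 21670 to 22249) were lower, and oligodendrocyte (15157 to 15668 and 17260 to 17568), striatal projection neuron (4177 to 4357 and 5512 to 5707) and choroid plexus markers (889.5 to 950.7 and 1251 to 1364) were higher in every HAR123-KO library. Enpp2 alone held 889 of the 921 choroid plexus counts in WT, and without it, a choice made after seeing the data, the other 9 markers summed to 27.0 to 35.3 in WT and 109.5 to 125.0 in HAR123-KO, 359% of the WT mean. The labelled tissue was thus present by its cortical neuron markers, beside markers of striatum and choroid plexus in both genotypes. The part of any of these lists in the H2-D1 and B2m differences was not tested.

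**Figure D5:**
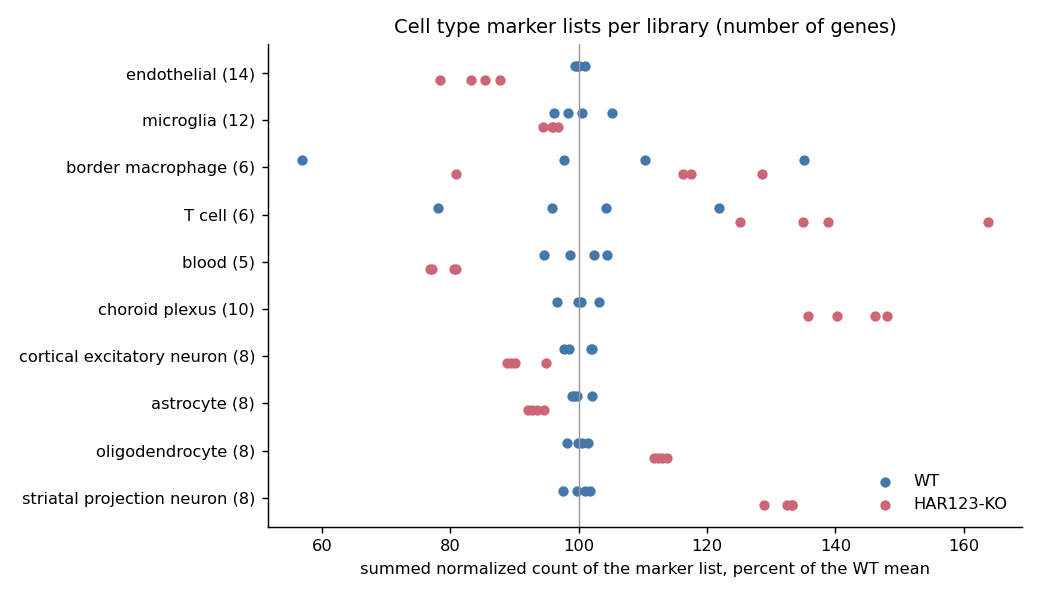
Summed normalized counts of 10 marker lists in each library (points) as a percent of the WT mean of the list, with the number of genes of each list in brackets. The endothelial (83.7%) and blood (78.8%) lists are lower in every HAR123-KO library, and the choroid plexus list (142.5%, most of its counts from Enpp2) is higher.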

How the data were processed

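Frontal cortex RNA of 4 WT and 4 HAR123-KO libraries was measured by ribosome-depleted, paired-end RNA-seq. The authors aligned reads with STAR 2.5.2b to GRCm38 and deposited raw counts per gene over exons, made with featureCounts, as given in the submitters' processing notes. All 55536 identifiers matched GENCODE M21, which gave symbols and coordinates, 1-based. Groups and replicate numbers came from the titles. The labels do not say that libraries came from separate animals, so p-values measure the spread between these libraries.

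The main test was the DESeq2 1.42.0 Wald test (R 4.3.3) on all 8 libraries with genotype as the only term, Benjamini-Hochberg adjustment and the independent filter (tuned to 0.1, leaving out genes with a mean under 17.6 normalized counts, which keep no adjusted p). Limits were an adjusted p below 0.05 and a log2 fold change beyond 0.5 in either direction. Intervals are 95% Wald intervals for fold changes and exact binomial intervals for ratios of raw counts, which cover counting error only, since reads carried no molecular tags. The alternatives were edgeR 4.0.16 (quasi-likelihood), limma-voom (limma 3.58.1), other size factors and filters (among them a minimum of 10 counts in 4 libraries), other limits, the replicate number as a block, and leaving out each library in turn. The main DESeq2 fit, edgeR and limma-voom were tested on simulated data first, and the other alternatives were not. Genes named were the 10 members, listed pathway genes with an unadjusted p under 0.05, the 2 with the highest level per kb of each list, called neighbours, the 5 likest H2-D1 by each measure and markers. Other genes were named after their values were seen.

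The members, lists and tests were chosen with earlier results of these data known. Transcript windows of 50 and 100 bases were compared with all other annotated transcripts. Coding sequences were aligned globally with Biopython 1.88. Motif shares use RefSeq promoters (GRCm38.p6).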

Additional observations from a re-analysis of the deposited data

Results flagged for a closer look

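Library values that stood apart were sought with Dixon's ratio in 26 groups of 4 libraries, where chance alone flags about 1 in 20 groups, or 1.3 here. It picked out 2. The normalized count of B2m in HAR123-KO replicate 1 was 110.6, while the other 3 HAR123-KO libraries lay between 136.1 and 140.7. Without this library the log2 fold change of B2m was -0.17, against -0.25 with it. The normalized count of Tap1 in HAR123-KO replicate 4 was 6.38, from 6 raw counts, while the other 3 lay between 2.64 and 3.07, from 3 raw counts each.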

How the results depend on the processing

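Of all genes tested, 38 were past the limits, against 73 with edgeR, 215 with no minimum fold change, 3 with stricter limits (adjusted p below 0.01, log2 fold change beyond 1), and 9 with the replicate block. Leaving out 1 library gave 11 to 44, with 18 without WT replicate 3 and 11 without HAR123-KO replicate 4. The causes were not tested, beyond the different limits and the fewer libraries. Of the 10 members, 1 (H2-D1) was past the limits, and 0 were with the stricter limits or with the replicate block. Leaving out 1 library gave 0 to 1: H2-D1 had an adjusted p of 0.0908 without WT replicate 1, 0.0697 without HAR123-KO replicate 2, and none without HAR123-KO replicate 4. Its log2 fold change was below 0 in every fit run (-0.70 to -0.58), with an adjusted p of 1 under the replicate block. Deviations of same-numbered libraries had correlations of -0.03 to 0.03 over 9280 genes, with the best match at their own number in 1 of 4. Libraries of a genotype differed little beyond sampling noise (chi-square per degree of freedom 1.21 to 1.31). Whether the numbers mark a pairing was not tested beyond these values. No other pathway gene was past the limits under any alternative run. The summed heavy chain ratio ran from 0.745 to 0.8002, and the difference in the share of H2-D1 in both classical genes from -5.83 to -1.69 percentage points without single libraries. Over the 4 heavy chain genes as denominator it was -7.39 points. The fold changes of H2-T23, Tapbp, Psmb8 and Psmb9 changed sign when single libraries were left out. At this depth, the summed ratio of Psmb8 and Psmb9 (0.968) has a counting interval from 0.475 to 1.97, so changes within that range were not detectable.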
